A study of Homo sapiens with 4 samples.

Results

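The late cholesterol synthesis enzymes CYP51A1, TM7SF2, NSDHL, HSD17B7, EBP and DHCR7 were followed in HT1080 cells, a human fibrosarcoma line, under hypoxia. A gene entered with a probe set that names it and no other gene, and where it had more than one, with the probe set of the highest mean over the 4 arrays. This gave 5 of the 6 genes a value, out of 18417 genes with such a probe set. The probe set for HSD17B7 also names its pseudogene HSD17B7P2, so its values are given apart and enter no count. The genes share their place in the pathway and not the use of oxygen: CYP51A1 consumes molecular oxygen, whereas the reactions of the other members are oxidations by NAD, reductions by NADPH or an isomerisation.

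Control cells stayed at 21% oxygen and hypoxic cells at 1% oxygen for 36 h, both with 5% carbon dioxide at 37 °C. In both arms, control cells included, serum was lowered to 0.4% no later than 24 h before the start and kept there to the end. Total RNA and ER-RNA, which was extracted from an ER fraction isolated with a kit, were measured on Affymetrix Human Gene 1.0 ST arrays, 1 array for each fraction and oxygen level. By the study's methods, cells used for ER isolation were first treated with cycloheximide. Each array carried a pool of RNA from 5 experiments, so no spread between experiments can be measured, no p-value is given, and precision is limited by there being 1 array per condition. The values are log2 signals from RMA, a normalization that summarises the probes of a gene. Because the RNA is bulk RNA of a culture, a change in the RNA of each cell and a change in the share of cells that carry it cannot be told apart. Array medians were 7.41 and 7.49 in total RNA and 6.25 and 6.34 in ER-RNA, so hypoxia was compared with control within each fraction. The mesenchymal markers VIM, CD44, FN1 and SPARC had log2 signals from 12.52 to 13.34 in total RNA under control conditions, while S100A4 and THY1 lay below the array's median, as did the epithelial markers EPCAM and CDH1 and the 3 blood cell markers. KRT19, a keratin of epithelial cells, was above that median at 7.74.

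Cholesterol is built from acetyl-CoA through mevalonate to squalene, and squalene is then folded into the first sterol, lanosterol. In the late part of the pathway lanosterol loses methyl groups and its double bonds are moved and reduced, steps that take place in the ER membrane. Most genes of the pathway are activated by SREBP-2, a transcription factor that SCAP escorts to the Golgi when sterols are low and that the INSIG proteins hold back in the ER. Several of the steps need oxygen, which sets this pathway among the cell's oxygen-consuming syntheses.

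A short stretch before an annotated start of each measured gene is shown, from RefSeq on GRCh38.p14. Each is read 5′ to 3′ on the strand of the gene. Capitals mark the CCAAT box nearest to the start, read as CCAAT or as its reverse ATTGG, a site known to be bound by NF-Y, which acts beside SREBP on many sterol genes. For CYP51A1, whose window holds no CCAAT box, they mark a GC box, here as CCGCCC.

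CYP51A1, chr7:92134521-92134550, minus strand: cagcggaacatcCCGCCCcattctgtgacg
TM7SF2, chr11:65111786-65111815, plus strand: ccccgagcgccgATTGGctggtgtgctggg
NSDHL, chrX:152830967-152830996, plus strand: cgccgagctgggCCAATcctcttggtggag
EBP, chrX:48521766-48521795, plus strand: cttcgcttcaccATTGGctcgctccgtaag
DHCR7, chr11:71448424-71448453, minus strand: ggtccgcctccgATTGGcaggcaatcgctg

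In windows from 250 bases before to 50 after the start, searched on both strands, ATTGG was found for 5 of the 6 member genes and in 34.6% of all 35116 windows. The GC box GGGCGG was found for 5 of 6 member genes and in 45% of all windows. The sterol regulatory element written as TCACNCCAC was found in none of the 7 member windows and in 1.13% of all windows, and its shorter form CACNCCAC, which lies within the longer, in none and in 5.87%. Of the hypoxia response element cores, ACGTG was found for DHCR7 alone (21.4% of all windows) and GCGTG for 5 of 6 genes (36.5%). DHCR7 has a pair of annotated starts, and the stretch shown comes from the window that holds CCAAT boxes. The stretches of CYP51A1 and DHCR7 lie within the outer bounds of their genes as annotated, and those of TM7SF2, NSDHL and EBP lie outside. Sites that depart from the letters given were not searched. These matches describe the letters in the windows and nothing about binding, and their bearing on the changes in hypoxia was not tested.

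In hypoxia, 3 of the 5 measured enzymes were called higher in total RNA, CYP51A1 2.08-fold, EBP 1.86-fold and DHCR7 1.61-fold. In ER-RNA none was called. All 5 were higher in hypoxia in both fractions, and the median of their log2 fold changes was 0.68 in either. To be called, a probe set had to lie above the 50% quantile of 1 array of the pair or more, differ by over 1.4-fold and have a z-score beyond 3. The z-score is the log2 fold change over the SD that a loess fit gives at that mean signal. That SD is of both array values and not of their difference. A z-score of 3 thus lies at fewer than 3 SDs of the log2 fold change. In total RNA this rule called 3.27% of the 17537 expressed probe sets higher, and 2.45% of those that name 1 gene. In ER-RNA it called 1.55% of 17581 higher, and 1.13% of those that name 1 gene. Over all expressed probe sets the median log2 fold change in total RNA was -0.0064 and that in ER-RNA 0.012. These calls depend on the SD and the normalization. With an SD from the scaled MAD (median absolute deviation) of the log2 fold changes themselves, a larger SD, 0 members were called in total RNA. With quantile normalization, over all arrays or within each fraction, 1 member, EBP, was called in ER-RNA. With 1 array per condition neither the members' count nor their median could be tested.

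**Figure D1:**
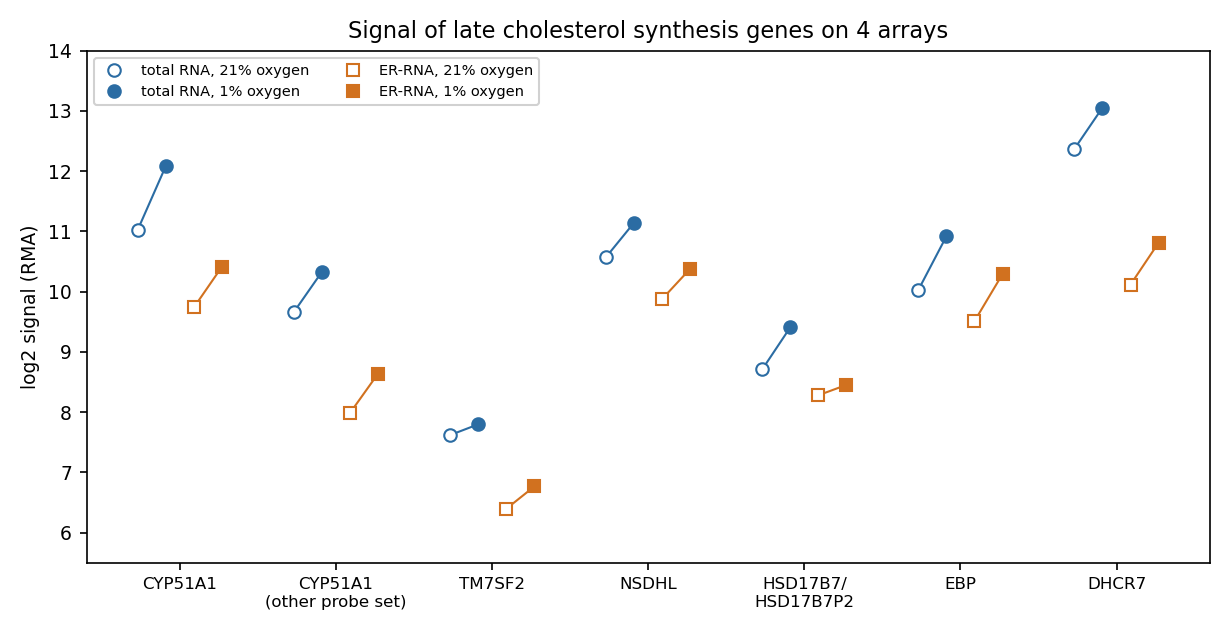
Log2 signal (RMA) of the 5 measured genes, of the second CYP51A1 probe set and of the probe set shared by HSD17B7 and HSD17B7P2, with circles for total RNA, squares for ER-RNA, open symbols for 21% oxygen and filled ones for 1%. Each symbol is 1 array, and every line runs upwards from control to hypoxia, steeply for CYP51A1 in total RNA (11.03 to 12.09) and least for the shared HSD17B7 probe set in ER-RNA (8.28 to 8.45).

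CYP51A1, the lanosterol demethylase, a cytochrome P450 that removes a methyl group from lanosterol with oxygen, lies at chr7:92112153-92134803. Its log2 signal was 11.03 under control conditions and 12.09 in hypoxia in total RNA, and 9.74 and 10.42 in ER-RNA. Both hypoxia values lay above their controls, by 1.06 on the log2 scale in total RNA (z-score 4.23) and 0.68 in ER-RNA (z-score 2.12, 1.60-fold). In total RNA 98.5% of the expressed probe sets had the same or a lower fold change, and in ER-RNA 96.8%. A second probe set of CYP51A1 gave 9.66 and 10.33 in total RNA and 7.99 and 8.64 in ER-RNA. On it the gene was 1.59-fold higher in total RNA (z-score 2.37), which is not a call, and likewise 1.57-fold higher in ER-RNA. The call of CYP51A1 therefore depended on the probe set, and so did the gap between the fractions. The ER-RNA log2 fold change minus that in total RNA was -0.38 on the first probe set and -0.014 on the second.

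TM7SF2, a sterol reductase that saturates the double bond left by CYP51A1, lies at chr11:65111872-65116230. Its log2 signal was 7.62 and 7.80 in total RNA and 6.39 and 6.77 in ER-RNA, control before hypoxia. In hypoxia it was at 1.13-fold in total RNA, and at 1.29-fold in ER-RNA, below the threshold of 1.4 in both, and its signal was close to the array medians. Of the 5 measured members TM7SF2 had the smallest log2 fold change in either fraction.

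NSDHL, a dehydrogenase that acts with a decarboxylation in the removal of methyl groups, lies at chrX:152831063-152869729. In total RNA it went from 10.57 to 11.15. In ER-RNA it went from 9.88 to 10.38. The fold changes of 1.49 and 1.42 passed the fold threshold in both fractions, but the z-scores of 2.10 and 1.58 did not. HSD17B7, at chr1:162790702-162812823, encodes the ketone reductase that completes this removal. The probe set that it shares with HSD17B7P2 went from 8.71 to 9.41 in total RNA, 1.62-fold (z-score 2.59), and from 8.28 to 8.45 in ER-RNA, 1.13-fold. A separate probe set for the pseudogene HSD17B7P2 rose 2.65-fold in total RNA, from 8.56 to 9.97. In ER-RNA it went from 8.51 to 9.22, which was not called (z-score 2.22). How much of either signal comes from the gene and how much from its near copy cannot be told apart on these probes.

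EBP, the sterol isomerase that moves a double bond within the ring, lies at chrX:48521808-48528716. Its log2 signal was 10.03 and 10.92 in total RNA and 9.51 and 10.29 in ER-RNA. EBP rose by 0.89 on the log2 scale in total RNA. Its z-score of 3.19 was near the limit, and centring each array on its median removed the call (0.81). In ER-RNA its 0.78 was the highest log2 fold change of the measured members (z-score 2.43). DHCR7, the reductase that makes cholesterol from its last precursor on one branch of the pathway, lies at chr11:71427287-71449043. It went from 12.37 to 13.06 in total RNA, up by 0.68 (z-score 3.82), and from 10.12 to 10.82 in ER-RNA, up by 0.70 (z-score 2.24). DHCR7 thus changed by nearly the same amount in both fractions, and was called in total RNA alone.

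The calls parted the fractions more than the fold changes did. In each fraction 4 of the 5 members were over 1.4-fold higher, a limit passed by 9.25% of probe sets expressed in total RNA but also by 8.69% of those in ER-RNA. At the mean signal of DHCR7 the rule asked for 1.45-fold in total RNA, but for 1.91-fold in ER-RNA. For CYP51A1 these limits were 1.68-fold and 1.94-fold, and for EBP 1.79-fold and 1.95-fold. Had the SD of ER-RNA been used for the log2 fold changes of total RNA, CYP51A1 would have had a z-score of 3.31, EBP of 2.77 and DHCR7 of 2.20. The ER-RNA log2 fold change minus that in total RNA ranged from -0.38 for CYP51A1 to 0.19 for TM7SF2, with a median of -0.071. Over the 15903 probe sets expressed in both fractions the median of this difference was -0.0037, and 90% of them lay between -0.58 and 0.49, a range that holds every member. Whether the fractions differ for these genes was not tested.

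**Figure D2:**
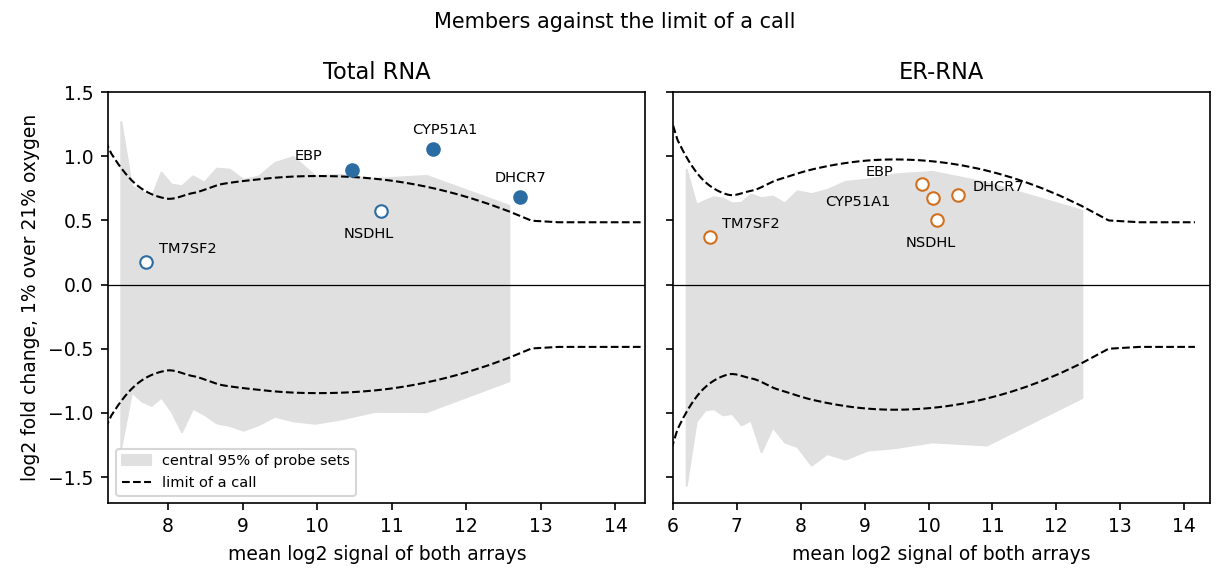
Log2 fold change, 1% over 21% oxygen, of the 5 measured genes against their mean log2 signal over both arrays, in total RNA (left) and ER-RNA (right), where filled points are called, the dashed line is the limit of a call and grey spans the central 95% of expressed probe sets in 20 bins of mean signal. The limit at the signal of DHCR7 is 1.45-fold on the left and 1.91-fold on the right, so similar changes fall on either side of it.

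The other enzymes after squalene were taken from a list with 6 measured genes. Of these, 2 were called higher in total RNA and none was called in ER-RNA. SQLE, the oxygen-using squalene epoxidase, rose 1.70-fold in total RNA (z-score 3.10), close to the threshold, and its 1.66-fold in ER-RNA was not called. LSS, which forms lanosterol, rose 2.35-fold in total RNA, from 10.25 to 11.49, while in ER-RNA its log2 fold change of 0.49 barely passed the fold threshold, and its z-score did not pass. MSMO1, an oxygen-using methyl sterol oxidase, was at 1.36-fold and 1.32-fold. SC5D, a desaturase that also uses oxygen, was at 1.38-fold and 1.33-fold. ERG28, a scaffold of the demethylating enzymes, was at 1.24-fold and 1.28-fold. LBR, a nuclear membrane protein with the same reductase activity as TM7SF2, was at 0.886-fold and 0.786-fold and was the only enzyme of the 6 below its control. The log2 fold changes of these 6 genes had medians of 0.45 and 0.41 in the respective fractions, beside 0.68 and 0.68 for the members.

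The 4 oxygen-using steps, SQLE, CYP51A1, MSMO1 and SC5D, differed in their calls, but near the limits of the rule. CYP51A1 and SQLE were called in total RNA, SQLE with a z-score of 3.10. MSMO1 and SC5D stayed just under the fold threshold, at 1.36-fold and 1.38-fold. The second CYP51A1 probe set, with a log2 fold change of 0.67, was not called. The log2 fold changes of the 4 steps in total RNA ran from 0.44 to 1.06. Those of the 4 measured members that use no oxygen, TM7SF2, NSDHL, EBP and DHCR7, ran from 0.18 to 0.89. Outside the members, LSS, ERG28 and LBR, which are not among the oxygen-using steps, lay at 1.23, 0.30 and -0.17. The ranges overlap, and none of the oxygen-using steps was called in ER-RNA.

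**Figure D3:**
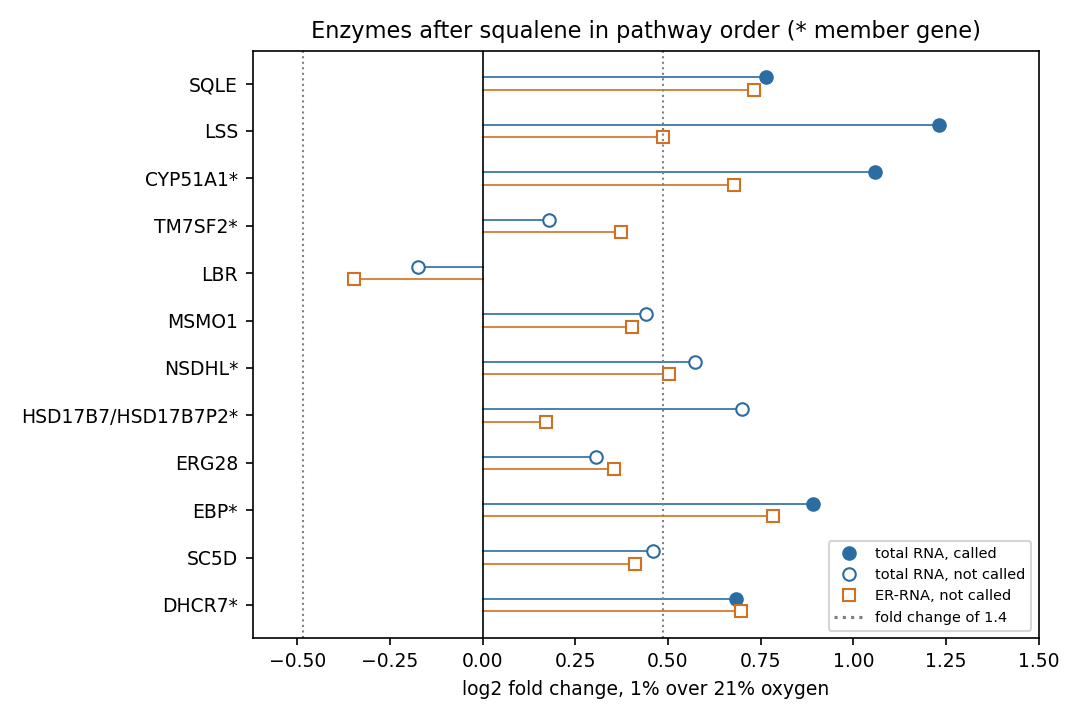
Log2 fold change, 1% over 21% oxygen, of the enzymes after squalene from top to bottom in pathway order, with circles for total RNA, squares for ER-RNA, filled symbols for calls dotted lines at a fold change of 1.4 and asterisks for the members. LBR lies below 0 in both fractions (-0.17 and -0.35) and the other genes above it.

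Upstream of squalene 7 genes were measured, of which 2 were called higher in total RNA and none was called in ER-RNA. MVD, which makes isopentenyl diphosphate, had the highest log2 fold change of them (1.26 in total RNA, 0.84 in ER-RNA). The other gene called in total RNA was ACAT2, a thiolase at the entry of the pathway (1.93-fold). PMVK, the kinase that acts just before MVD, had the lowest log2 fold change (0.10 and -0.12). The medians were 0.68 in total RNA, as for the late enzymes, and 0.39 in ER-RNA. Calls among the 11 measured genes for sterol sensing and uptake were 3 higher and 1 lower in total RNA, and 1 higher in ER-RNA. INSIG2, which retains SCAP in the ER, went up 5.41-fold in total RNA, while its rise in ER-RNA was 3.54-fold. INSIG1, its relative, rose 1.94-fold and STARD4, a sterol carrier, 2.36-fold in total RNA. In ER-RNA they were at 1.59-fold and 1.62-fold, over the fold threshold, but with z-scores of 2.08 and 2.14 they were not called. SCAP, the escort of SREBP, fell to 0.563 of its control level in total RNA, while its ER-RNA level stood at 0.926. In total RNA 6.39% of expressed probe sets were called lower, and in ER-RNA 7.31%. SREBF2, which encodes SREBP-2, was at 1.22-fold and 1.21-fold and was called in neither. In a check of the treatment by known hypoxia-induced genes, BNIP3 rose in both fractions, 3.78-fold and 3.29-fold, and GAPDH was at 1.09-fold and 1.10-fold.

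All members encode proteins of the ER membrane, so their place in ER-RNA over total RNA was looked at too. The arrays of the fractions do not share a scale, and only a gene's position among the 15903 probe sets expressed in both was read. DHCR7 lay lowest of the members, with a log2 difference of -2.25 under control conditions and -2.24 in hypoxia, and 6.51% and 7.22% of probe sets lay at or below it. CYP51A1 lay at percentile 34.2 under control conditions and 20.4 in hypoxia, and its second probe set at 19.5 and 19.9. TM7SF2 lay at percentile 37.0 and 47.4, NSDHL at 63.7 and 60.9 and EBP at 70.8 and 67.4. The probe set shared by HSD17B7 and HSD17B7P2 lay at 73.6 and 51.2. The position of a member thus spanned most of the range, and between oxygen levels it moved by more for TM7SF2 and the first CYP51A1 probe set than for the other measured members.

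After subtraction of the array medians, 7 genes of ER-resident chaperones and the translocon had a median of -1.01 under control conditions and 8 cytosolic genes one of 1.05. By these medians the chosen ER genes lay below the chosen cytosolic ones in the fraction labelled ER-RNA. The members, which also encode ER proteins, ran from -1.10 to 0.64 under control conditions. A position in ER-RNA over total RNA is not read here as a share of transcripts at the ER. After quantile normalization of all 4 arrays the medians of the ER and the cytosolic genes were -1.67 and -0.075. DHCR7 stayed low with a difference of -1.85 under control conditions and -1.92 in hypoxia, and EBP was at 0.34 and 0.089.

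**Figure D4:**
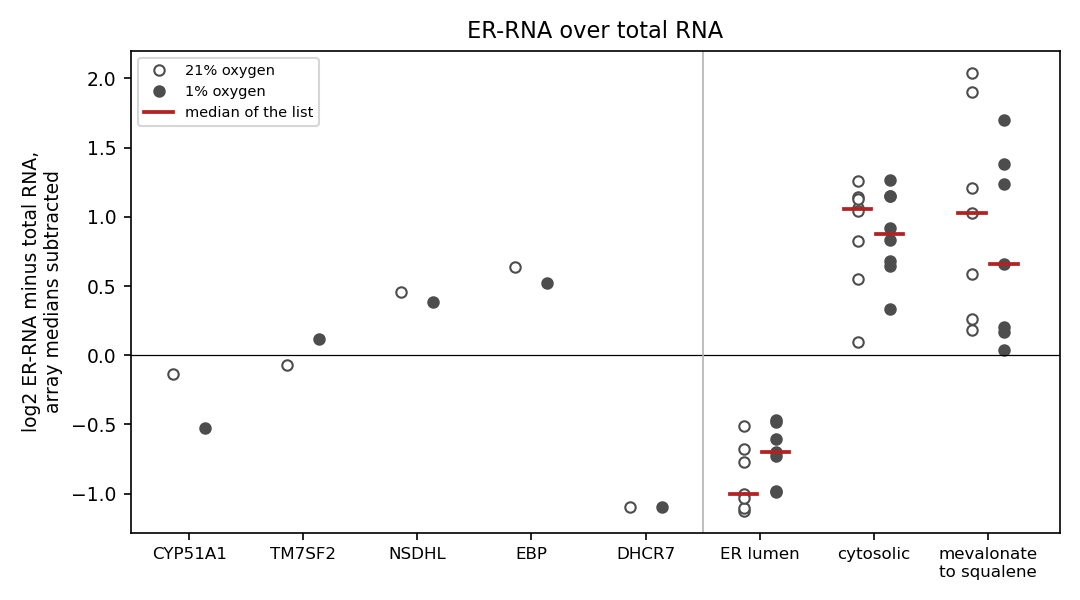
Log2 ER-RNA minus total RNA after subtraction of the array medians, for the 5 measured genes and, right of the line, each gene of 3 lists with the list's median, at 21% oxygen (open) and 1% oxygen (filled). The list labelled ER lumen holds genes of ER-resident chaperones and the translocon, not of lumen proteins alone. DHCR7 lies at -1.10 and -1.09, within that list's range under control conditions (-1.12 to -0.51) and below it in hypoxia (-0.99 to -0.47). EBP lies highest of the members at 0.64 and 0.52.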

How the data were processed

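The authors hybridised pooled RNA to 4 arrays and used RMA, which gave the deposited log2 signals. Partek 6.4 and RMA are credited to the submitters' processing notes. Whether 1 run held all arrays was not stated in the sources read. Of 33297 probe sets, 19460 name 1 gene in the platform annotation, 1754 several and 12083 none. Gene names were updated by identifier through RefSeq for 19429 of the 19460.

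Calls took the study's thresholds and were computed in R 4.3.3, with limma 3.58.1 for alternative normalizations. The loess curve (span 0.75, degree 2) of the SD over both arrays against their mean was fitted to the expressed probe sets of a pair, which is a reading of the methods, and the calls, above all their absence in ER-RNA, rest on it. The code of the rule was run on simulated data with added changes larger than those of most members. Recovery of changes of the members' size was not checked. The members and the gene lists were chosen with earlier results of these data known. All members are named, with the neighbours after squalene, the highest and lowest gene in total RNA of other lists, and the 5 genes nearest in profile. SREBF2, ACAT2, INSIG1, STARD4, POR and CYB5B were named after their values were seen. Some listed genes are not analysed here. The 13 alternatives listed at the outset and 1 added later covered normalization, filter, SD, thresholds and probe set choice.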

Additional observations from a re-analysis of the deposited data

How the results depend on the processing

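No paired analysis was possible because each group holds 1 array. In 140 values of single members over 14 settings none was below 0, 126 kept their side of the call rule, 7 lost a call and 7 gained one. Settings of filter, SD or threshold leave the fold changes as they are and can alter a call only. The sign of a change could therefore move only with normalization or probe set choice, and many of these values are repeats. With the SD taken from the scaled MAD, 0 members were called in total RNA, and with a fold threshold of 2 CYP51A1 alone (1). By fold change alone 4 were called in ER-RNA. In ER-RNA EBP was called after quantile normalization of all arrays or within each fraction, which made the count 1 in each case. The median log2 fold change in total RNA was 0.83 after quantile normalization of all arrays. In ER-RNA it was 0.85 after quantile normalization within each fraction and 0.81 after loess within each fraction. Medians that moved by 0.1 or less on the log2 scale were taken as unmoved. The probe set of CYP51A1 with the lower mean, a setting chosen after seeing the data, took away its call in total RNA. The causes were not tested. All of these values rest on single arrays.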

Other observations

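Of 4 measured genes that hand electrons to the oxygen-using enzymes, none was called higher in either fraction. CYB5A, a cytochrome b5 that feeds sterol desaturation and demethylation, was called lower in both fractions. Its log2 signal went from 9.38 to 8.48 in total RNA, to 0.536 of control (z-score -3.37), and from 10.14 to 9.06 in ER-RNA, to 0.474 (z-score -3.32). CYB5R3, the reductase of cytochrome b5, was the highest of them in total RNA at 0.894-fold, and in ER-RNA stood at 1.16-fold, neither called. POR, the reductase that serves cytochromes P450, was at 0.780-fold and 1.16-fold and CYB5B, another cytochrome b5, at 0.786-fold and 0.790-fold, none of them called.

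Among 6 measured genes of sterol efflux and oxysterol formation, ABCA1, the cholesterol exporter, fell to 0.480 of control in total RNA, from 9.74 to 8.68 (z-score -3.87). In ER-RNA it stood at 0.674 (z-score -2.35). ABCA1 was the only call in this list, but genes below the expression filter could not be called. Just 2 of the 6 passed that filter in total RNA, while 3 did so for the ER fraction. CH25H, an oxysterol-forming hydroxylase, had the highest log2 fold change in total RNA (0.21), where its signal lay below the expression filter.

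Over the 4 arrays, the 5 genes of 10846 nearest to the members' mean profile were WEE1, LINC03030, ZP1, SNX25 and CHRM4, at root mean square distances from 0.030 to 0.062 on the log2 scale. None of them was called in either fraction. The members themselves lay 0.18 to 0.51 from their own mean. Because the 5 genes were picked as the nearest, setting their distances against the members' says nothing about the members.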
